A study of Mus musculus with 66 samples.

Results

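Transcripts of the Wnt signalling machinery that sits outside the cell or in its membrane were followed in mouse lung with and without the transcription factor Nrf2. The genes were those whose platform symbol was Wnt, Fzd, Sfrp or Dkk with a number, together with Lrp5, Lrp6, Wif1, Axin2 and Lef1. The rule found 42 genes of the 18193 with a single symbol on the array: 19 Wnt ligands, 10 Frizzled receptors, 2 co-receptors, 9 secreted inhibitors and 2 target genes. Each was represented by its brightest probe set over the 66 arrays, and 81 probe sets covered the 42 genes in all.

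The lungs came from mice carrying both Nrf2 alleles (Nrf2+/+, wild type) or neither (Nrf2-/-, knockout), with no other allele or agent named. Both genotypes were sampled at 11 ages. The fetal lungs were of E13.5 and E15.5, and of E17.5 and E18.5 nearer to birth, in days of gestation. Those after birth were of PND0 to PND4 (neonates), PND14 (juveniles) and PND42 (adults). Each of the 22 groups held 3 samples that the submitters called biological replicates. Whole lungs were homogenised, and at E13.5 several lungs were combined for a sample. The labels name no promoter or Cre for the deletion, and neither the strain nor the sex of the mice was used here. In whole tissue, fewer cells of a type and less RNA per cell cannot be told apart.

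Wnt proteins are lipid-modified secreted ligands that bind a Frizzled receptor. Together with the co-receptors Lrp5 or Lrp6 this stabilises beta-catenin, which enters the nucleus and acts with transcription factors of the TCF/LEF family, of which Lef1 is a member, on targets such as Axin2. Other ligands, among them Wnt5a and Wnt11, are best known for signalling that does not need beta-catenin. Wif1 and the Sfrp proteins bind Wnt ligands in the extracellular space, and Dkk1 and Dkk2 bind the co-receptors. In the developing lung Wnt2 and Wnt2b, made in the mesenchyme, specify the respiratory endoderm, and Wnt7b, made in the epithelium, is needed for growth of the underlying mesenchyme and vessels. Nrf2 itself activates genes of the antioxidant response by binding antioxidant response elements.

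The promoters of Wif1, Wnt2, Fzd5 and Wnt5b are printed. Wif1 and Wnt2 were lower in the knockout at birth, Fzd5 was higher there, and Wnt5b held both motifs searched. The stretches are the bases just upstream of the RefSeq transcription start in GRCm38.p6, read 5′ to 3′ on the gene's strand, and capitals mark a motif match:
Wif1, chr10:121033754-121034003, plus strand: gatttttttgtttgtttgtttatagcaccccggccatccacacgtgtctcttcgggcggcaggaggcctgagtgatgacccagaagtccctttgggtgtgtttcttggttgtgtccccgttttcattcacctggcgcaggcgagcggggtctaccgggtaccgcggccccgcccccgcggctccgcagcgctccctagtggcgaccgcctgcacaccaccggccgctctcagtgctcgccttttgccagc
Wnt2, chr6:18030446-18030695, minus strand: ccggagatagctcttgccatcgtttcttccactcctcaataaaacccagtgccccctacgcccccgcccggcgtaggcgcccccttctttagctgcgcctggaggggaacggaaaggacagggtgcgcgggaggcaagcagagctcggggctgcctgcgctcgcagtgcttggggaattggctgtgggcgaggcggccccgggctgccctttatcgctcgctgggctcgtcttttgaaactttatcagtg
Fzd5, chr1:64737751-64738000, minus strand: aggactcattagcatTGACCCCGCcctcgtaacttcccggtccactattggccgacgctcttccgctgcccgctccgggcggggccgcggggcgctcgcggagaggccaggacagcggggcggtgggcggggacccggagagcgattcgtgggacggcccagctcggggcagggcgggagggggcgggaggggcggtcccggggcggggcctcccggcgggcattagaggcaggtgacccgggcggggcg
Wnt5b, chr6:119449387-119449636, minus strand: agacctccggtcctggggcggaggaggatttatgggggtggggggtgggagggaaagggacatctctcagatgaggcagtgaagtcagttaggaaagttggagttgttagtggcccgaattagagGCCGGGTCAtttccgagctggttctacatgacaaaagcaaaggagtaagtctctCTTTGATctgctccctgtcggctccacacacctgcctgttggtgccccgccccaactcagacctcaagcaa
The motifs were searched on both strands of each window, which holds 250 bases before the start and 50 after it: CTTTGAT, recognised by TCF/LEF factors, and TGACNNNGC, the core of the antioxidant response element. Of the 42 genes, 28 had a window in the table, with 34 starts among them. Only Wnt5b held both motifs in 1 window, in matches that do not overlap; the Wnt11 matches lie in windows of different starts. The TCF/LEF motif was found in windows of 2 members (Wnt5b and Wnt11), and it occurred in 3.73% of all 32851 windows. The antioxidant core was found in windows of 6 members (Fzd5, Fzd9, Wnt2b, Wnt5b, Wnt11 and Wnt16), and in 12.4% of all windows. In Fzd5 it lay 235 bases before the start, and in Wnt5b the TCF/LEF match lay 71 bases before 1 of 3 listed starts. The windows of Wif1 and Wnt2 held neither set of letters, which describes these windows only.

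Values are log2(signal + 16) after quantile normalization, and a difference is knockout minus wild type on that scale unless said otherwise. A gene was called where limma's moderated test, fitted over all 66 arrays, gave a Benjamini-Hochberg adjusted p under 0.05 over all 45037 probe sets. Counts at an unadjusted p under 0.05 are given without the share of all genes at that threshold, and nothing is drawn from them. Levels of different genes cannot be ranked, because probe sets differ in affinity. The deposited arrays of PND1 to PND4 were scaled differently (trimmed means of 172 to 307, against 500 for the 42 others), so age steps were tested within either set. Tests over all 11 ages span both sets, and in them age and array set cannot be told apart. The transcript of Nrf2 (Nfe2l2) read 10.49 to 12.25 in wild type and 4.41 to 8.26 in knockout, without overlap. Whether the probe set lies in the deleted part was not known.

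Some libraries stood apart, and they touch several results below. The knockout libraries labelled E17.5 and E18.5 went against the order of their labels: on a scale built from 2508 genes, with wild type E15.5 at 0 and wild type PND0 at 1, they lay at 0.75 ± 0.04 and 0.44 ± 0.07 (SD, n = 3), while wild type lay at 0.57 ± 0.06 and 0.79 ± 0.09. Markers of lung epithelium, mesenchyme and endothelium were measured in every library, with list means from 7.36, 10.01 and 9.20 upwards. Heart genes were also high in every library, with list means of 9.70 to 14.39. In 12 libraries the mean of the liver, cartilage or thymus genes reached 9.5 or more, among them wild type E13.5 replicate 2, wild type PND14 replicates 2 and 3, knockout PND2 replicates 1 and 3, and 6 wild-type libraries of PND1 to PND4. Each headline count was therefore also taken over the other 54 libraries, a choice made after seeing the data. Where a group then held a single library, that library was assumed to vary like the others.

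In wild-type lung most of the set differed between ages, as most genes did. By the test over the 11 ages, 32 of the 42 genes differed between ages (76.2%), against 74.2% of all genes, a share close to the background. The test spans both sets of arrays, so a change with age and a difference between the sets cannot be told apart in it. All 31 members whose group mean signal reached 100 at some age were called. Of the 11 dimmer ones 1 was (Wnt10b, adjusted p = 0.043). The split used each gene's highest group mean, so a gene could pass only through the age where it peaked. Fzd9 (median signal 27.45, highest group mean 159.7) and Dkk1 (32.69 and 103.1) passed in this way, in wild type E13.5. The share called among all genes under the same split is not given, so nothing is drawn from the 31. The dimmer members were Wnt1, Wnt2b, Wnt3, Wnt8a, Wnt8b, Wnt9b, Wnt10a, Wnt10b, Wnt16, Dkk4 and Sfrp5, and nothing further is drawn from them.

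**Figure D1:**
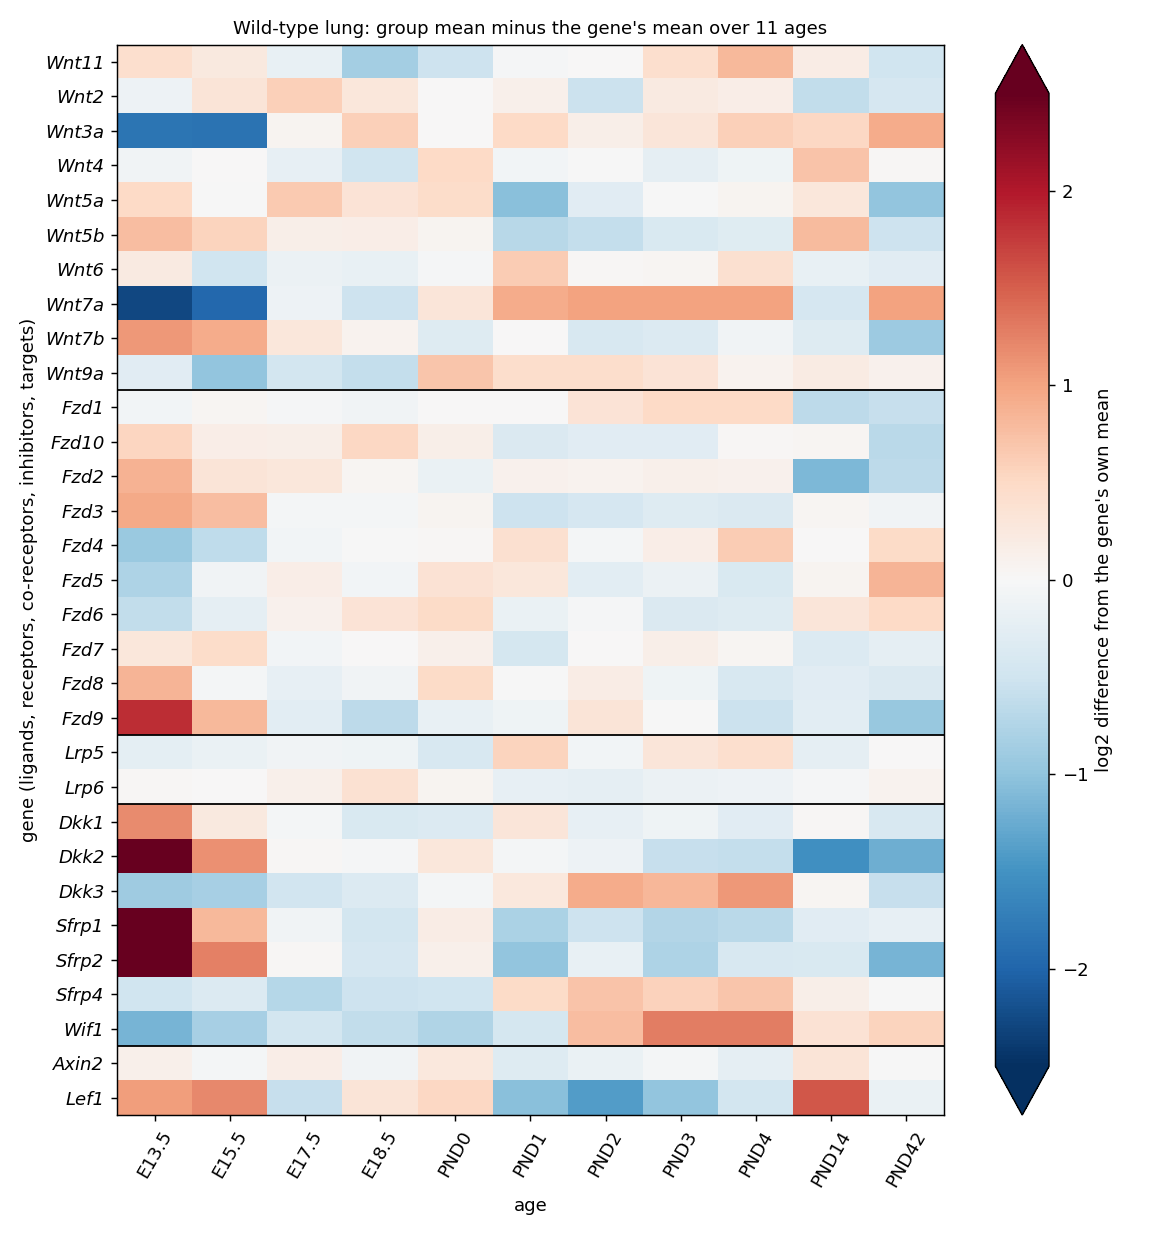
Wild-type course of the 31 brighter genes: colour gives the group mean of 3 libraries minus the gene's own mean over the 11 ages, on the log2 scale, with genes in rows by role and ages in columns. Sfrp1, Sfrp2 and Dkk2 were at their highest at E13.5, Wif1 at PND3 and Dkk3 at PND4, 2 ages whose arrays were scaled differently from most others.

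Of the 9 secreted inhibitors, 3 were called lower from E13.5 to E15.5 (Sfrp1, Sfrp2 and Dkk2), and from E15.5 to PND0 1 was called lower (Sfrp2) and 1 higher (Dkk3). Sfrp2 read 12.10, 12.97 and 11.91 in the wild-type libraries of E13.5, 10.90, 10.84 and 10.35 at E15.5, and 9.52, 9.61 and 9.56 at PND0. It fell at both steps, by 1.63 ± 0.34 (SE, adjusted p = 0.00094) and by 1.13 ± 0.34 (adjusted p = 0.0087), with no overlap between neighbouring groups. Sfrp1 read 10.73, 11.43 and 10.73 at E13.5 and 9.07, 9.01 and 8.93 at E15.5. It fell by 1.96 ± 0.35 (adjusted p = 7.9e-05). Both are decoy proteins that share the ligand-binding domain of the Frizzled receptors. Dkk2 read 8.81, 10.74 and 8.86 at E13.5 against 8.23, 7.67 and 7.89 at E15.5, a fall of 1.54 ± 0.35 (adjusted p = 0.0024). In replicate 2 of E13.5, where Dkk2 was highest, liver genes averaged 10.2 against 7.0 in each of the others, skeletal muscle genes 11.2 against 9.2 and 8.8, and cartilage genes 10.04 against 8.48 and 7.77. Without that library the fall of Dkk2 was 0.91 and lost its call (adjusted p = 0.14).

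Wif1 moved the other way in the neonate. It read 8.82, 9.38 and 9.29 at PND1 and 10.81, 11.06 and 10.73 at PND4, a rise of 1.70 ± 0.28 (adjusted p = 1.6e-05). Over the longer step from PND0 (8.78, 8.69 and 9.08) to PND14 (10.37, 8.91 and 10.58) it rose by 1.10 ± 0.28 (adjusted p = 0.0041). The low PND14 value came from replicate 2, the library richest in thymus genes. Without PND14 replicate 3 this call was lost (0.79, adjusted p = 0.075), and over the 54 libraries the rise was 1.52 (adjusted p = 5e-04).

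From E13.5 to E15.5, 7 of the 42 genes were called (16.7%), against 10.8% of all genes. Only Fzd5 was higher among them (background 6.38%), by 0.69 ± 0.16 (adjusted p = 0.0026), and with the mean of its probe sets the rise was 0.26 and not called (adjusted p = 0.56). The 6 lower genes (background 4.44%) were Sfrp1, Sfrp2, Dkk2, Fzd8, Wnt6 and Fzd2. The receptor Fzd8 read 9.08, 9.64 and 8.91 and then 8.33, 8.42 and 8.18, a fall of 0.90 ± 0.18 (adjusted p = 0.00068). Fzd2 fell by 0.54 ± 0.13 (adjusted p = 0.0033) and Wnt6 by 0.72 ± 0.24 (adjusted p just under the threshold). Without E13.5 replicate 2 the calls of Dkk2, Fzd2 (fall of 0.42, adjusted p = 0.071) and Wnt6 (fall of 0.44, adjusted p = 0.43) were lost and 4 genes remained called. Over this step the list mean of lung epithelium went from 7.36 to 7.69 up to 9.16 to 9.75 (5 of 6 genes called higher), that of mesenchyme from 10.01 to 10.62 up to 10.78 to 10.93 (2 of 4) and that of thymus genes from 5.63 to 6.17 up to 7.59 to 7.76 (1 of 4), while skeletal muscle went from 8.77 to 11.22 down to 7.30 to 7.53 (1 of 7 called lower). Their part in these changes was not tested.

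From E15.5 to PND0, 13 genes were called (31%), against 36.8% of all genes. The 8 higher ones (background 17.9%) were led by ligands. Wnt7a read 4.46, 5.74 and 5.89 at E15.5 and 8.10, 7.30 and 7.49 at PND0, a rise of 2.27 ± 0.39 (adjusted p = 5e-06). Wnt3a read 4.61, 4.60 and 6.35 and then 7.26, 6.86 and 7.02, a rise of 1.86 ± 0.35 (adjusted p = 2e-05). Wnt9a stood at 7.28 in all 3 E15.5 libraries and read 9.01, 8.66 and 9.18 at PND0, a rise of 1.67 ± 0.24 (adjusted p = 9.1e-08). For Wnt7a and Wnt9a the other probe sets did not show this: theirs changed by -0.38 to 0.42, none called, and the mean of the probe sets of Wnt7a rose by 0.77 (adjusted p = 0.0075). The receptors Fzd6 (0.70 ± 0.13, adjusted p = 3e-05) and Fzd4 (0.66 ± 0.16, adjusted p = 0.00067), a receptor for norrin as well as for Wnts, and Dkk3, a divergent member of the Dkk family (0.78 ± 0.21, adjusted p = 0.0024) also rose. Fzd8 (0.52 ± 0.18, adjusted p = 0.026) and Fzd5 (0.44 ± 0.16, adjusted p = 0.031) rose too, but leaving out any 1 of 4 libraries ended either call (lowest rises of 0.46 and 0.30), and the second probe set of Fzd5 differed by -0.17. With the mean of a gene's probe sets the rises of Fzd6, Fzd4 and Fzd5 were 0.39, 0.26 and 0.14, none called (adjusted p = 0.12, 0.27 and 0.73). With array medians subtracted in place of quantile normalization, 35.9% of all called genes were higher at PND0, not 48.5%, the median of all genes was -0.14, and 6 members were higher and 8 lower.

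Wnt7b fell over the same step. It read 9.08, 9.26 and 9.14 at E15.5 and 8.10, 7.77 and 7.90 at PND0, a fall of 1.24 ± 0.20 (adjusted p = 2.3e-06), and its second probe set fell as well. The 5 lower genes (background 19%) were Wnt7b, Sfrp2, Wnt11 (fall of 0.75 ± 0.22, adjusted p = 0.0054), Fzd3 (fall of 0.70 ± 0.16, adjusted p = 0.00036) and Fzd2 (fall of 0.49 ± 0.13, adjusted p = 0.0016). This fall of Wnt11 was no longer called without PND0 replicate 2 (fall of 0.62, adjusted p = 0.053). Marker lists moved over the same step. Their means went from 9.16 to 9.75 at E15.5 up to 11.99 to 12.21 at PND0 for lung epithelium (4 of 6 genes called higher), from 5.97 to 6.16 up to 8.90 to 9.26 for macrophages (3 of 4), from 9.74 to 9.90 up to 10.88 to 11.27 for endothelium (4 of 4), from 6.26 to 8.11 up to 10.35 to 10.74 for oesophagus (3 of 4) and from 7.30 to 7.53 up to 10.37 to 10.84 for skeletal muscle (6 of 7). Cell cycle genes went from 11.70 to 11.78 down to 8.52 to 9.67 (5 of 5 called lower). Mesothelium (8.78 to 9.01, then 10.16 to 10.47) and smooth muscle (11.30 to 11.54, then 11.87 to 11.94) were also higher without overlap. Lists of heart (12.95 to 13.15, then 11.24 to 12.48), cartilage and liver were lower without overlap. Their part in the changes of the Wnt genes was not tested.

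Between PND1 and PND4, 7 genes were called (16.7%), against 13.4% of all genes: 6 were higher (background 7.33%) and 1 lower (background 6.09%). Beside Wif1, Wnt5a read 8.48, 9.04 and 9.15 and then 10.05, 10.09 and 9.85, a rise of 1.11 ± 0.23 (adjusted p = 0.00068), and all 3 other probe sets of Wnt5a rose too. Wnt11 rose by 0.83 ± 0.22 (adjusted p = 0.007), Dkk3 by 0.83 ± 0.21 (adjusted p = 0.0047), Fzd1 by 0.49 ± 0.16 (adjusted p = 0.037) and Fzd7 by 0.48 ± 0.14 (adjusted p = 0.015). Fzd5 fell by 0.67 ± 0.16 (adjusted p = 0.0028). The rise of Fzd1 lost its call without any 1 of the 6 libraries (0.45 to 0.53, adjusted p = 0.058 to 0.12), that of Fzd7 without PND1 replicate 1 or PND4 replicate 2 (0.39 and 0.43), and that of Dkk3 without PND1 replicate 1 (0.63, adjusted p = 0.075). With array medians subtracted, 43% of all called genes were higher at PND4, not 54.6%, and 4 members were higher (without Fzd1 and Fzd7) and 1 lower. Both were also lost with the mean of probe sets (0.40 and 0.37; adjusted p = 0.073 and 0.26). All 5 cell cycle genes and 3 of 4 smooth muscle genes were called higher at PND4, with list means of 8.04 to 8.39 and then 10.70 to 10.77, and of 10.72 to 10.97 and then 11.49 to 11.68, and their part was not tested.

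From PND0 to PND14, 8 genes were called (19%), against 16.9% of all genes, with 3 higher (background 8.98%) and 5 lower (background 7.88%). Dkk2 read 7.14, 6.94 and 7.12 and then 4.74, 5.23 and 5.77, a fall of 1.82 ± 0.35 (adjusted p = 0.00019). Fzd2 read 10.30, 10.24 and 10.38 and then 9.73, 8.83 and 9.46, a fall of 0.97 ± 0.13 (adjusted p = 1.4e-07). The falls of Fzd8, Fzd1 and Fzd7 (0.76, 0.67 and 0.46) were lost without PND14 replicate 2 (falls of 0.40, 0.26 and 0.18; adjusted p = 0.12, 0.16 and 0.38). Wnt5b (0.74 ± 0.24, adjusted p = 0.03) and Wnt11 (0.71 ± 0.22, adjusted p = 0.02) rose beside Wif1, and both calls were lost without any 1 of several libraries (lowest rises of 0.62 and 0.40). Subtracting array medians instead, 80.8% of all called genes were higher at PND14, not 53.2%, the median of all genes was 0.18, and the members split 3 to 3, Fzd1 and Fzd7 no longer being called. The mean of probe sets gave 0.33 for Wnt5b (adjusted p = 0.44) and -0.11 for Fzd7 (adjusted p = 0.8). Smooth muscle genes averaged 11.87 to 11.94 at PND0 and 10.08 to 11.58 at PND14 (3 of 4 called lower), and 2 of 4 thymus genes were called higher, which was not tested against these changes.

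From PND14 to the adult, 10 genes were called (23.8%), against 20% of all genes, with 4 higher (background 9.56%) and 6 lower (background 10.4%). Wnt5a read 10.32, 9.41 and 10.88 and then 8.98, 8.85 and 9.0, a fall of 1.26 ± 0.23 (adjusted p = 8.8e-05). Wnt5b read 7.68, 7.75 and 7.69 and then 6.73, 6.17 and 6.29, a fall of 1.31 ± 0.24 (adjusted p = 6.5e-05). Fzd5 rose by 0.79 ± 0.16 (adjusted p = 0.00029). Over the 54 libraries, where PND14 keeps only replicate 1, its rise was 0.59. Without PND14 replicate 2, the rises of Wnt7a, Fzd2 and Fzd4 (1.43, 0.48 and 0.47) became 0.94, 0.23 and 0.10 and the fall of Lef1 (1.72) became 0.74, none of them called (adjusted p = 0.15, 0.24, 0.73 and 0.37). The falls of Wnt11 (0.68), Dkk3 (0.63) and Wnt7b (0.57) were each lost without any 1 of PND14 replicates 1 and 3 and PND42 replicates 1 and 2. The second probe set of Wnt7b differed by 0.61, in the other direction. After subtraction of array medians, 35.7% of all called genes were higher in the adult, not 47.8%, and 2 members were higher and 7 lower. The mean of probe sets ended the calls of Wnt7a, Fzd2, Fzd4 and Dkk3 (0.47, 0.27, 0.45 and -0.51; adjusted p = 0.18, 0.26, 0.06 and 0.11). Cell cycle genes averaged 8.80 to 11.64 at PND14 and 7.73 to 8.19 at PND42 (5 of 5 called lower), and 3 of 4 thymus and 3 of 4 oesophagus genes were called lower, whose part was not tested.

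Averaged over the ages, few of the 42 genes differed between knockout and wild type by the test. In all, 3 of the 42 genes were called (7.14%), against 11.3% of all genes: the ligand antagonist Wif1 was lower, and the ligand Wnt7b and the target Axin2 were higher. Wif1 differed by -0.56 ± 0.08 (adjusted p = 2.9e-06), Wnt7b by 0.30 ± 0.06 (adjusted p = 0.00061) and Axin2 by 0.24 ± 0.05 (adjusted p = 0.0011). In all, 14 had an unadjusted p under 0.05. The median over the 42 was 0.00, against 0.01 over all genes. Over the 54 libraries all 3 stayed called (-0.48, 0.26 and 0.25), and Wnt2, Fzd8 and Fzd2 were called too (0.26, 0.19 and -0.13). When array medians were subtracted instead, 82.5% of all called genes were higher in the knockout, not 59.7%, and 3 members were higher and Wif1 lower.

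**Figure D2:**
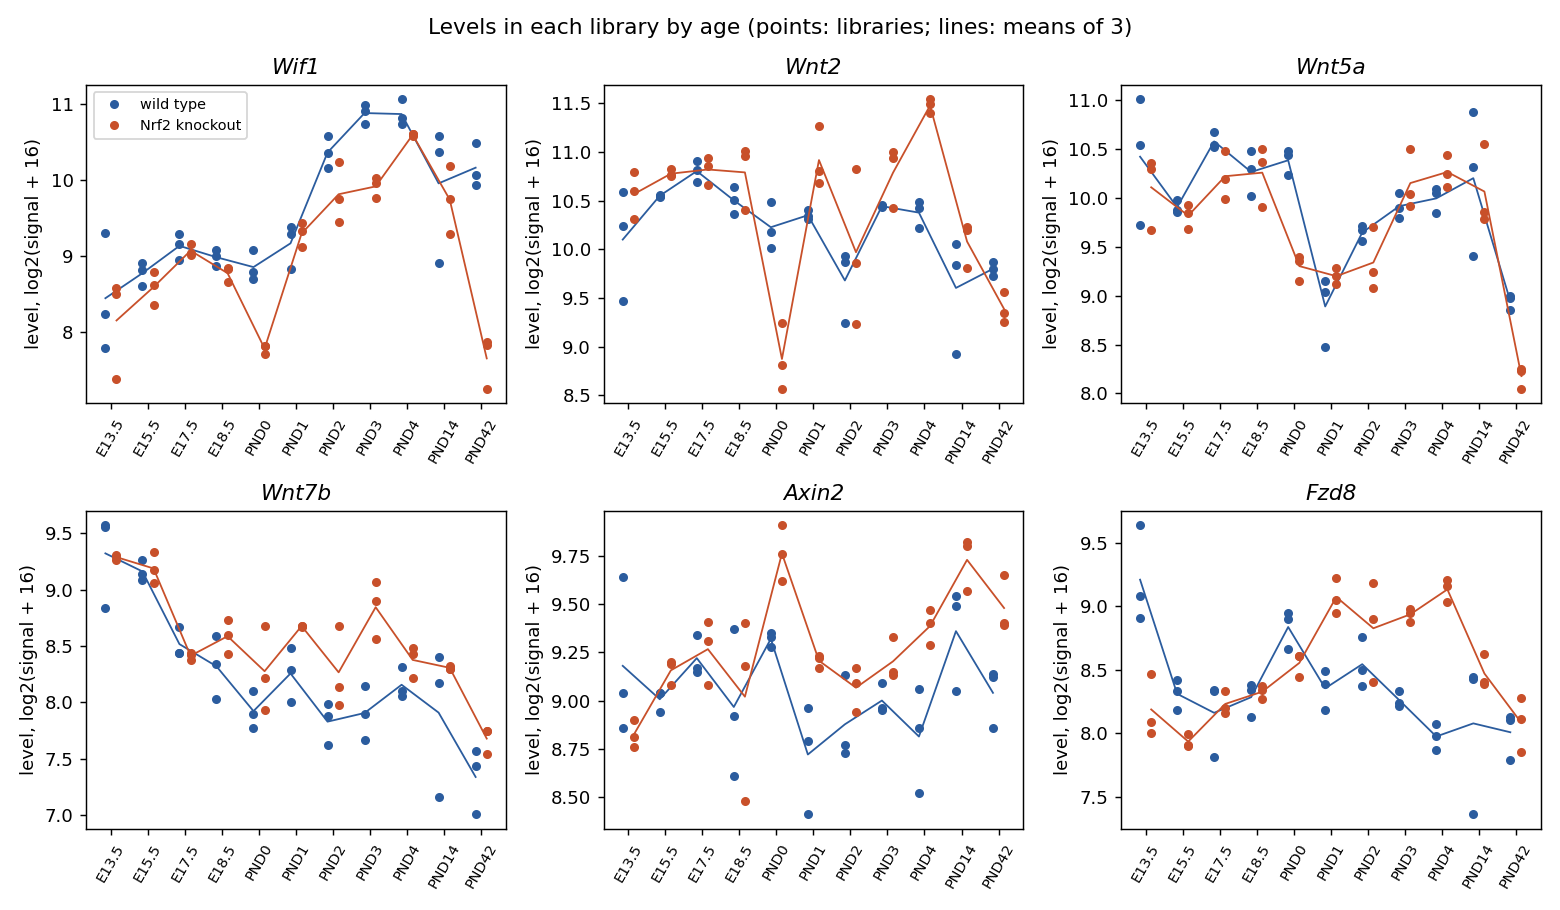
Levels of 6 genes in each of the 66 libraries by age: points are libraries, lines join the means of 3, blue is wild type and orange the Nrf2 knockout, and the axes are log2 and start above 0. At PND42 the knockout libraries of Wif1 sit between 7.25 and 7.86, all below the wild-type libraries at 9.93 to 10.48.

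Wif1, which traps Wnt ligands outside the cell, showed the largest fall of the set at a single age. In adult lung it read 10.48, 10.07 and 9.93 in wild type and 7.25, 7.86 and 7.83 in knockout, with no overlap between the groups. The difference was -2.51 ± 0.28 (adjusted p = 6.6e-09), a 5.71-fold lower level on the scale of signal + 16. Means of the liver, cartilage and thymus lists stayed at or below 7.89 in all 6 adult libraries, and all 6 were among the 54. Other lists did not overlap between the adult groups. Mesenchyme averaged 10.63 to 10.70 in wild type and 10.42 to 10.49 in knockout (0 of 4 genes called), macrophages 10.40 to 10.72 and 9.80 to 10.10 (1 of 4 called lower), lung epithelium 12.19 to 12.28 and 12.40 to 12.47 (0 of 6 called), cell cycle 7.73 to 8.19 and 7.58 to 7.65, and cartilage 4.90 to 5.38 and 5.63 to 5.65. Their part in the difference of Wif1 was not tested. At PND0 it read 8.78, 8.69 and 9.08 against 7.71, 7.81 and 7.81, a difference of -1.07 ± 0.28 (adjusted p = 0.0061). At PND3 it read 10.74, 10.99 and 10.91 against 9.76, 9.96 and 10.02, a difference of -0.96 ± 0.28 (adjusted p = 0.02).

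The fall of Wif1 was not present at every age. Its groups also did not overlap at E18.5 and PND4, where the differences were small and not called (-0.21 and -0.27). At PND1 the knockout libraries read 9.43, 9.33 and 9.12, within or just above the wild-type range of 8.82 to 9.38. The test of whether the difference was equal at the 11 ages gave an adjusted p of 2.5e-05. The calls at PND0 and PND42 held without any 1 library, and that at PND3 was lost without wild type replicate 2 or 3 or knockout replicate 1 (-0.95 to -0.89, adjusted p = 0.063 to 0.078). At PND3 liver genes averaged 6.9, 13.3 and 10.7 in wild type and 5.4, 5.9 and 5.5 in knockout, and their part in the result was not tested.

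Axin2, whose transcription is induced by beta-catenin and whose protein limits the pathway, was higher by a small margin at most postnatal ages. The knockout libraries lay above all wild-type libraries at E15.5, PND0, PND1, PND3, PND4, PND14 and PND42. At PND4 they read 9.29, 9.47 and 9.40 against 9.06, 8.86 and 8.52, the widest mean difference for the gene (0.57, adjusted p = 0.13). No single age was called. At E13.5 the sign was opposite (-0.35, adjusted p = 0.37). The result rests on the brighter of 2 probe sets: the other gave an average of 0.04, and with both averaged the difference was 0.14 (adjusted p = 0.18).

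Wnt7b was called at PND3, where wild type read 7.90, 7.67 and 8.15 and knockout 8.90, 8.56 and 9.07. The difference was 0.94 ± 0.20 (adjusted p = 0.0014), and it was 0.95 over the 54 libraries (adjusted p = 0.0061). It was positive at each postnatal age and at E18.5, and between -0.10 and 0.03 at E13.5, E15.5 and E17.5. The second probe set averaged 0.21, was not called and was negative at PND0 (-0.14). Whether the difference depended on age was not called either (adjusted p = 0.15). Lung epithelium markers averaged 12.26 to 12.33 in wild type and 12.40 to 12.60 in knockout at PND3, and their part was not tested.

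**Figure D3:**
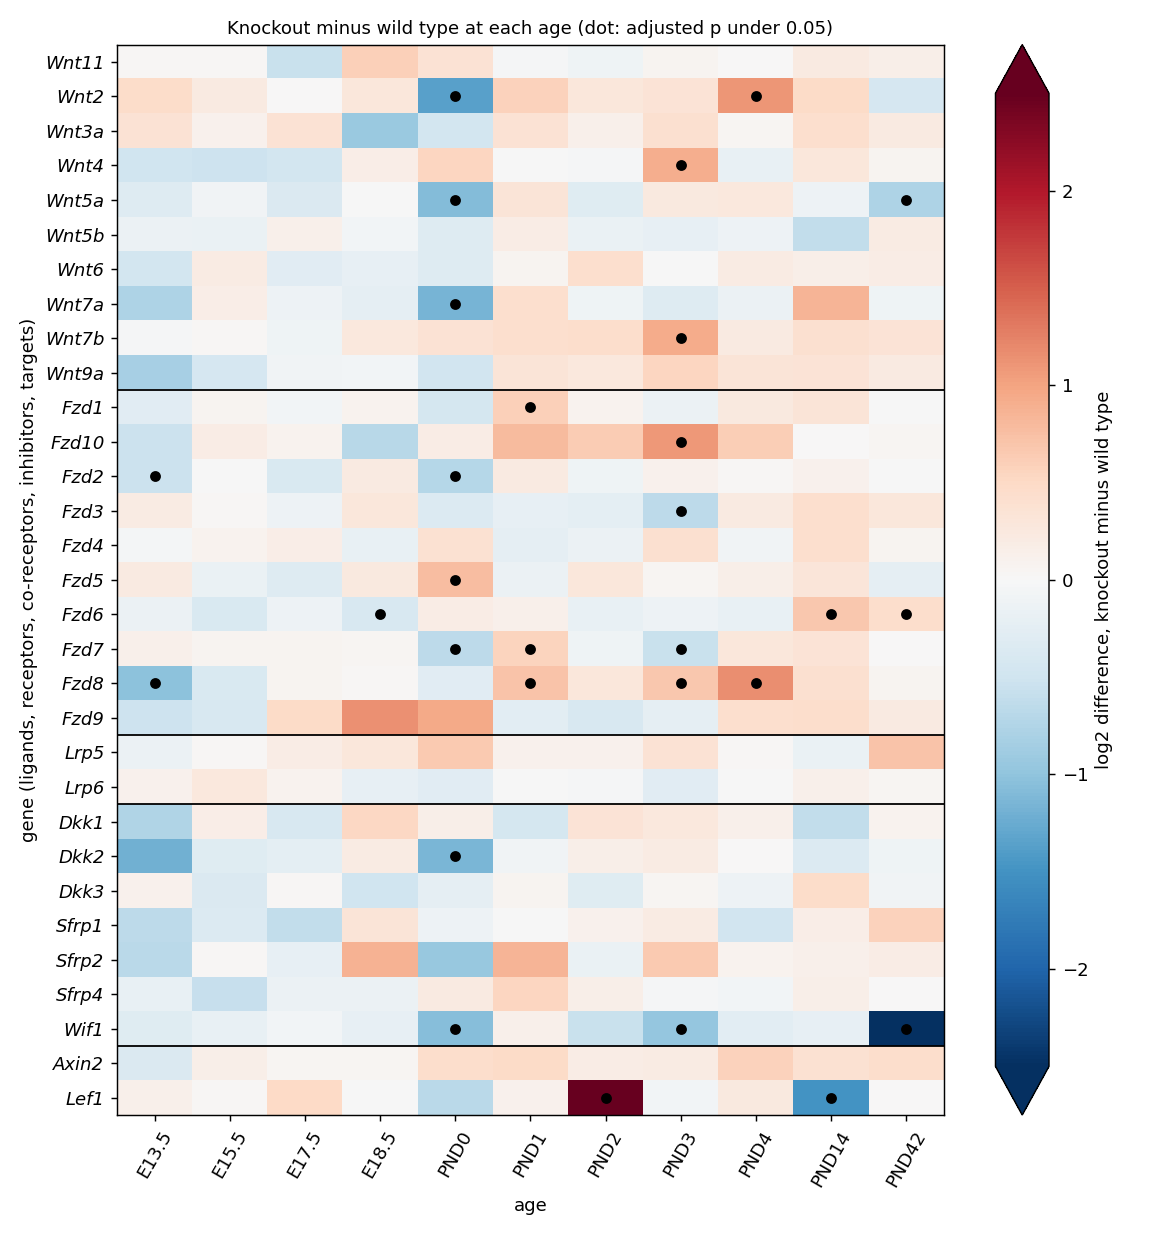
Knockout minus wild type for the 31 brighter genes at each age: colour gives the log2 difference and a dot marks an adjusted p under 0.05, with genes in rows by role. The PND0 column holds 8 dots, 7 of them blue, and the E15.5 and E17.5 columns hold none.

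The day of birth held the most calls of any age. At PND0, 8 of the 42 genes were called (19%), against 14.5% of all genes: 7 were lower (16.7%, background 8.64%) and 1 was higher (background 5.84%). The lower genes were 3 ligands (Wnt2, Wnt5a and Wnt7a), 2 receptors (Fzd2 and Fzd7) and 2 inhibitors (Wif1 and Dkk2), and the higher one was the receptor Fzd5. In all, 18 of the 42 had an unadjusted p under 0.05. The median over the 42 genes was -0.19, against -0.03 over all genes.

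Wnt2, a ligand of the lung mesenchyme, read 10.49, 10.01 and 10.18 in wild type and 8.81, 9.24 and 8.57 in knockout. The difference was -1.35 ± 0.24 (adjusted p = 7.2e-05), and knockout replicates 3 and 1 held the lowest Wnt2 values of all 66 libraries. Wnt5a read 10.48, 10.24 and 10.44 against 9.15, 9.40 and 9.36, a difference of -1.08 ± 0.23 (adjusted p = 0.00085). Its 3 other probe sets differed by -1.52 to -0.77, and 2 of them were called. Wnt5a is also made mainly in mesenchyme. The list of 4 mesenchymal markers averaged 11.1, 10.9 and 11.2 in wild type and 11.0, 11.3 and 11.2 in knockout, and smooth muscle markers 11.87 to 11.94 and 10.92 to 11.78. Their part in these falls was not tested. Wnt7a read 8.10, 7.30 and 7.49 against 7.10, 6.47 and 5.83 (-1.17 ± 0.39, adjusted p = 0.042). Its other 2 probe sets differed by -0.05 and 0.27, and the mean of the 3 by -0.32 (adjusted p = 0.45).

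Among the receptors, Fzd2 read 10.30, 10.24 and 10.38 against 9.92, 9.51 and 9.35, a difference of -0.72 ± 0.13 (adjusted p = 4.6e-05). Its 2 other probe sets were also lower, 1 of them called. Fzd5 read 9.19, 8.58 and 9.0 against 9.65, 9.58 and 9.87, a difference of 0.78 ± 0.16 (adjusted p = 0.00041), and its second probe set was called in the same direction (1.16). Fzd7 read 10.74, 10.47 and 10.56 against 9.93, 9.83 and 10.04 (-0.66 ± 0.14, adjusted p = 0.00047). Its second probe set went the other way by 1.01, not called, so the direction of Fzd7 differs between its probe sets. The co-receptor Lrp6 differed by -0.27 (adjusted p = 0.2).

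Of the inhibitors, Dkk2 read 7.14, 6.94 and 7.12 against 6.20, 5.95 and 5.60, a difference of -1.15 ± 0.35 (adjusted p = 0.023). The calls of Dkk2 and Wnt7a were lost without wild type replicate 1 or 3 or knockout replicate 2 or 3 (-1.17 to -0.99 for Dkk2, -1.24 to -0.85 for Wnt7a; adjusted p up to 0.13 and 0.28), and those of the other 6 genes held without any 1 library. Oesophagus markers averaged 10.7, 10.3 and 10.6 in wild type at PND0 and 10.2, 7.3 and 8.7 in knockout, thymus markers 4.6, 9.1 and 7.1 against 5.0, 5.9 and 5.2, and skeletal muscle markers 10.4, 10.8 and 10.4 against 11.6, 8.6 and 7.4. Smooth muscle markers averaged 11.87 to 11.94 in wild type and 10.92 to 11.78 in knockout (1 of 4 called lower), cell cycle genes 8.52 to 9.67 and 7.92 to 8.16 (2 of 5 called lower), and macrophage markers 8.90 to 9.26 and 9.61 to 10.03 (0 of 4 called), each without overlap. The part of these lists in the differences at birth was not tested. All 6 libraries of PND0 were among the 54, where the smaller spread left 13 genes called, against 19.9% of all genes.

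At 3 of the 4 ages from PND1 to PND4 the receptor Fzd8 was higher in the knockout. It read 8.49, 8.39 and 8.18 against 9.05, 9.22 and 8.95 at PND1, 8.33, 8.21 and 8.24 against 8.98, 8.88 and 8.95 at PND3, and 7.87, 8.07 and 7.98 against 9.03, 9.21 and 9.16 at PND4. The differences were 0.72 ± 0.18 (adjusted p = 0.022), 0.68 ± 0.18 (adjusted p = 0.012) and 1.16 ± 0.18 (adjusted p = 8.6e-05), with no overlap of the groups at those ages. At PND2 the groups overlapped (0.28, adjusted p = 0.43). Over the 54 libraries, where each PND2 group keeps a single library, the difference was 0.81. At E13.5 the sign was opposite: 9.08, 9.64 and 8.91 against 8.47, 8.0 and 8.09, a difference of -1.03 ± 0.18 (adjusted p = 0.00066). The test of equal differences over the ages gave an adjusted p of 2.7e-07 for Fzd8, the lowest of the set.

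Wnt2 also changed sign between ages. At PND4 it read 10.42, 10.49 and 10.22 in wild type and 11.49, 11.54 and 11.40 in knockout, a difference of 1.10 ± 0.24 (adjusted p = 0.014), after the fall at PND0. The groups did not overlap at PND1, with the knockout above (0.57, adjusted p = 0.26). They did not overlap at E15.5 either, with the knockout above (means of 10.78 and 10.55 in wild type). At PND42 the knockout lay below without overlap (means of 9.385 and 9.802 in wild type). Neither difference was called. The PND4 call was lost without wild type replicate 3 or knockout replicate 1 or 2 (1.02 to 1.09, adjusted p = 0.054 to 0.13) and with array medians subtracted (1.00, adjusted p = 0.15). Over the 54 libraries it was 1.02 (adjusted p = 0.00042). At PND4 only these 2 genes were called (4.76%), against 0.643% of all genes. Macrophage markers averaged 9.44 to 9.66 in wild type and 8.22 to 8.74 in knockout at this age, and endothelial markers 11.03 to 11.13 and 11.31 to 11.51; their part was not tested.

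At PND1, 3 genes were called (7.14%), against 2.56% of all genes, all of them receptors and all higher: Fzd8, Fzd7 (0.56 ± 0.14, adjusted p = 0.015) and Fzd1 (0.59 ± 0.16, adjusted p = 0.032). Fzd1 read 11.56, 11.67 and 11.71 against 12.15, 12.30 and 12.26. Fzd7 read 9.95, 10.03 and 10.11 against 10.36, 10.82 and 10.59. For none of the 3 did the groups overlap. Without wild type replicate 2 or knockout replicate 2 limma called none of them (0.44 to 0.74, adjusted p = 0.052 to 0.15), and without any other library of this age at most 2. With array medians subtracted none was called (0.68, 0.51 and 0.49 for Fzd8, Fzd7 and Fzd1; adjusted p = 0.11, 0.19 and 0.36). Over the 54 libraries all 3 were called. With the mean of its probe sets Fzd1 was not (0.47, adjusted p = 0.083). Macrophage markers averaged 9.40 to 9.68 in wild type and 8.40 to 8.91 in knockout, and endothelial markers 10.71 to 11.34 and 11.45 to 11.54, and their part was not tested.

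At PND3, 7 genes were called (16.7%), against 10.8% of all genes. The 4 higher ones (background 4.08%) were Wnt7b, Fzd8, Fzd10 (1.08 ± 0.31, adjusted p = 0.019) and the ligand Wnt4 (0.91 ± 0.24, adjusted p = 0.011), and the 3 lower ones (background 6.71%) were Wif1, Fzd3 (-0.66 ± 0.16, adjusted p = 0.0042) and Fzd7 (-0.56 ± 0.14, adjusted p = 0.0045). Wnt4 read 8.30, 7.99 and 8.43 against 8.85, 9.29 and 9.29, and Fzd3 8.68, 8.61 and 8.55 against 8.05, 7.82 and 8.01. Fzd7, higher at PND1, was lower here, at 10.58, 10.68 and 10.56 against a knockout mean of 10.05 ± 0.06 (SD, n = 3) with no overlap. Of the 5 other probe sets of Fzd3, 1 was called in each direction. With the mean of probe sets the calls of Fzd7, Fzd8 and Fzd3 were lost (-0.32, 0.36 and -0.28; adjusted p = 0.37, 0.24 and 0.26). Over the 54 libraries, where wild type keeps only replicate 1, Wnt7b, Fzd3 and Fzd7 stayed called, while Fzd10, Fzd8, Wif1 and Wnt4 did not (adjusted p = 0.18, 0.052, 0.1 and 0.16). Skeletal muscle genes averaged 7.7, 13.6 and 10.1 in knockout and 6.7, 7.2 and 6.9 in wild type, and cell cycle genes 9.25 to 9.95 and 10.40 to 10.63. Lung epithelium markers averaged 12.40 to 12.60 in knockout and 12.26 to 12.33 in wild type. Those of endothelium averaged 11.36 to 11.67 and 11.12 to 11.23, and those of macrophages 8.01 to 8.35 and 8.47 to 9.24. The part of these lists in the values at PND3 was not tested. Without single libraries, Wnt4 was lost without wild type replicate 2 or knockout replicate 2 or 3 (0.78 to 0.83) and Fzd10 without wild type replicate 2 or knockout replicate 1 (0.83 and 0.96). With array medians subtracted, 25.5% of all called genes were higher, not 37.8%, and Fzd8 and Fzd10 lost their calls (0.58 and 0.96; adjusted p = 0.086 and 0.058).

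Lef1, a target as well as a nuclear partner of beta-catenin, is also a transcription factor of developing T cells. It was the only member called at PND2 (2.38%, against 5.97% of all genes) and, with Fzd6, 1 of 2 at PND14 (4.76%, against 9.38%). At PND2 it read 7.03, 7.35 and 6.89 in wild type and 10.83, 7.90 and 10.32 in knockout, a difference of 2.60 ± 0.49 (adjusted p = 0.00061). The mean of the 4 thymus markers measured was 6.6, 6.1 and 5.7 in those wild-type libraries and 10.4, 7.7 and 9.3 in the knockout libraries, so both were high in replicates 1 and 3. Without those 2 knockout libraries, and without wild type replicates 2 and 3 rich in liver genes, the difference was 0.87 ± 0.51 (adjusted p = 0.42).

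**Figure D4:**
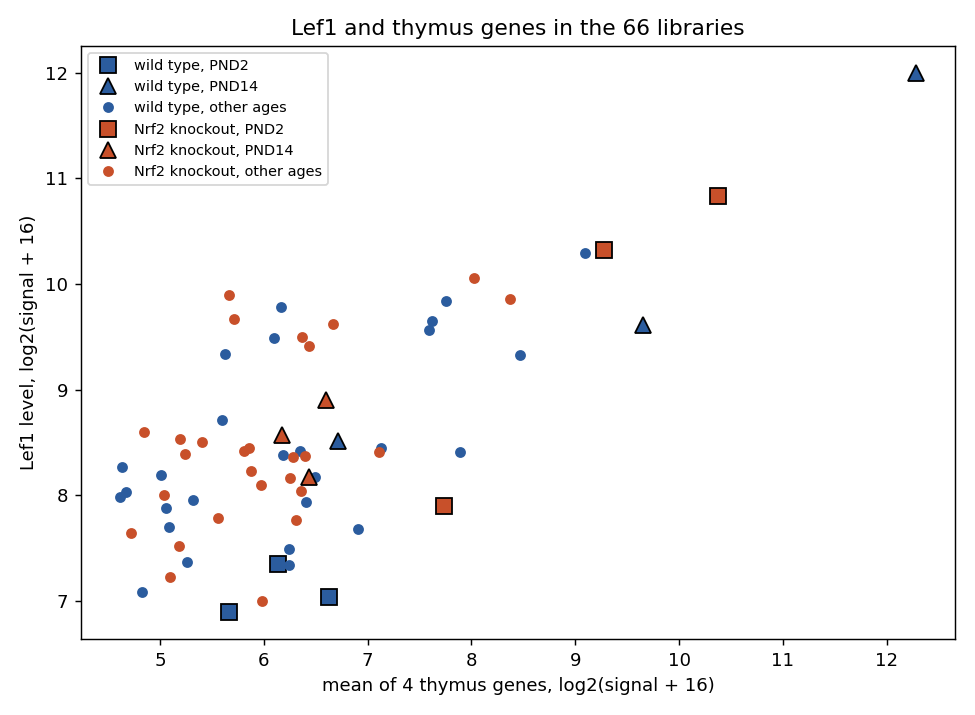
Lef1 against the mean of 4 thymus genes in each of the 66 libraries, both on the log2(signal + 16) scale: squares are PND2, triangles PND14, small circles the other ages, blue wild type and orange knockout. The highest Lef1 value, 12.00, is in wild type PND14 replicate 2, which also has the highest thymus mean, 12.28.

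At PND14 the difference of Lef1 was opposite. Wild type read 8.51, 12.00 and 9.61 and knockout 8.17, 8.90 and 8.57, so the groups overlapped. The difference was -1.49 ± 0.49 (adjusted p = 0.048). Thymus markers averaged 6.7, 12.3 and 9.7 in wild type and 6.4, 6.6 and 6.2 in knockout. Without wild type replicate 2 the difference was -0.51 (adjusted p = 0.73), and over the 54 libraries it was 0.04 (adjusted p = 0.99). Fzd6 at the same age read 10.64, 9.65 and 10.33 against 10.65, 11.01 and 11.01, a difference of 0.68 ± 0.13 (adjusted p = 0.00071), and 0.40 (adjusted p = 0.078) without that library. Its 2 other probe sets differed by -0.36 and -0.16, neither called, and the mean of the 3 by 0.05 (adjusted p = 0.91). Limma called no member at PND14 once wild type replicate 2 was left out, against 1.05% of all genes. With that library 12 of the 42 had an unadjusted p under 0.05.

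In the adult, 3 genes were called (7.14%), against 4.8% of all genes. Beside Wif1, Wnt5a read 8.98, 8.85 and 9.0 in wild type and 8.05, 8.25 and 8.23 in knockout, a difference of -0.77 ± 0.23 (adjusted p = 0.037). Fzd6 read 10.36, 10.44 and 10.36 against 10.75, 10.84 and 10.88, a difference of 0.44 ± 0.13 (adjusted p = 0.036). The groups did not overlap for either gene. Both calls were near the threshold: Wnt5a was lost without any 1 of the 6 libraries (-0.82 to -0.70, adjusted p = 0.071 to 0.12), and Fzd6 without any but knockout replicate 1 (0.41 to 0.46, adjusted p = 0.071 to 0.14). The other probe sets of Wnt5a had the same sign, uncalled (mean of all -0.32, adjusted p = 0.46), and the 2 of Fzd6 differed by -0.84 and 0.19, which turns its mean to -0.07.

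The embryonic ages held few calls. At E13.5, 2 genes were called (4.76%), against 1.96% of all genes, both receptors and both lower: Fzd8, given above, and Fzd2. Fzd2 read 11.22, 11.57 and 11.22 against 10.84, 10.67 and 10.90, a difference of -0.53 ± 0.13 (adjusted p = 0.014). Without wild type replicate 2 Fzd8 kept its call and Fzd2 did not (-0.42, adjusted p = 0.18), and without knockout replicate 2 Fzd2 was also lost (-0.47, adjusted p = 0.11), as it was with the mean of its probe sets (-0.47, adjusted p = 0.12). Lung epithelium markers averaged 7.4, 7.5 and 7.7 in wild type and 10.6, 8.5 and 9.7 in knockout at this age, and skeletal muscle markers 8.77 to 11.22 and 7.41 to 8.70, and their part was not tested.

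At E15.5 limma called no member, against 0.148% of all genes, and 5 had an unadjusted p under 0.05. At E17.5 it also called none, against 1.64% of all genes, with 3 at an unadjusted p under 0.05. At E18.5 1 gene was called (2.38%), against 12.4% of all genes. That was Fzd6, at 10.23, 10.36 and 10.10 against 9.66, 9.79 and 10.05 (-0.40 ± 0.13, adjusted p = 0.048), and leaving out wild type replicate 1 or 2 or knockout replicate 1 or 2 ended the call (-0.40 to -0.31, adjusted p = 0.12 to 0.28). Its other probe sets differed by 0.08 and 0.33, so the direction is that of 1 probe set. Lung epithelium markers averaged 11.90 to 12.23 in wild type and 11.36 to 11.73 in knockout at E18.5, and cell cycle genes 9.42 to 10.42 and 10.96 to 11.30, and their part was not tested. The knockout libraries labelled E18.5 were also set against wild type E17.5, and those labelled E17.5 against wild type E18.5. Limma then called no member (unadjusted p under 0.05 for 0 and 1), and 112 and 365 of all 45037 probe sets.

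Of the 42 genes, 17 were called in at least 1 of these 12 comparisons (40.5%), against 42.5% of all 18193 genes, and 25 in none, 11 of them the dim ones. The 14 brighter genes without a call were 5 ligands (Wnt3a, Wnt5b, Wnt6, Wnt9a and Wnt11), the receptors Fzd4 and Fzd9, both co-receptors, and the inhibitors Dkk1, Dkk3, Sfrp1, Sfrp2 and Sfrp4. Lrp6 differed little: at PND42 it read 10.39, 10.41 and 10.46 in wild type and 10.38, 10.58 and 10.42 in knockout, and its differences ran from -0.27 to 0.27 over the ages. Lrp5 stood higher in knockout without overlap at PND0, PND3 and PND42. In the adult it read 7.22, 6.91 and 7.0 against 7.40, 8.14 and 7.74, a difference of 0.71 that missed the threshold (adjusted p = 0.066; 0.034 over the 54 libraries). Sfrp2 differed most at PND0, at 9.52, 9.61 and 9.56 against 8.78, 8.66 and 8.43 (-0.94, adjusted p = 0.07). Wnt11 read 7.99, 8.17 and 8.10 against 7.5, 7.5 and 7.59 at E17.5 and 7.25, 7.27 and 7.73 against 8.0, 8.01 and 8.01 at E18.5, opposite differences of -0.56 and 0.59 at the 2 ages whose knockout libraries went against label order (adjusted p = 0.27 and 0.082).

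Whether the knockout difference was equal at all 11 ages was tested for each gene. It depended on age for 15 of the 42 (35.7%), against 35.2% of all genes. These were 8 of the 10 receptors (Fzd1, Fzd2, Fzd3, Fzd5, Fzd6, Fzd7, Fzd8 and Fzd10), 4 ligands (Wnt2, Wnt4, Wnt5a and Wnt9a), the inhibitors Wif1 and Sfrp2, and Lef1. Over the 54 libraries the test again called 15, with Lef1 and Wnt4 lost (adjusted p = 0.39 and 0.061) and Axin2 and Wnt7b added (adjusted p = 0.015 and 0.016).

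**Figure D5:**
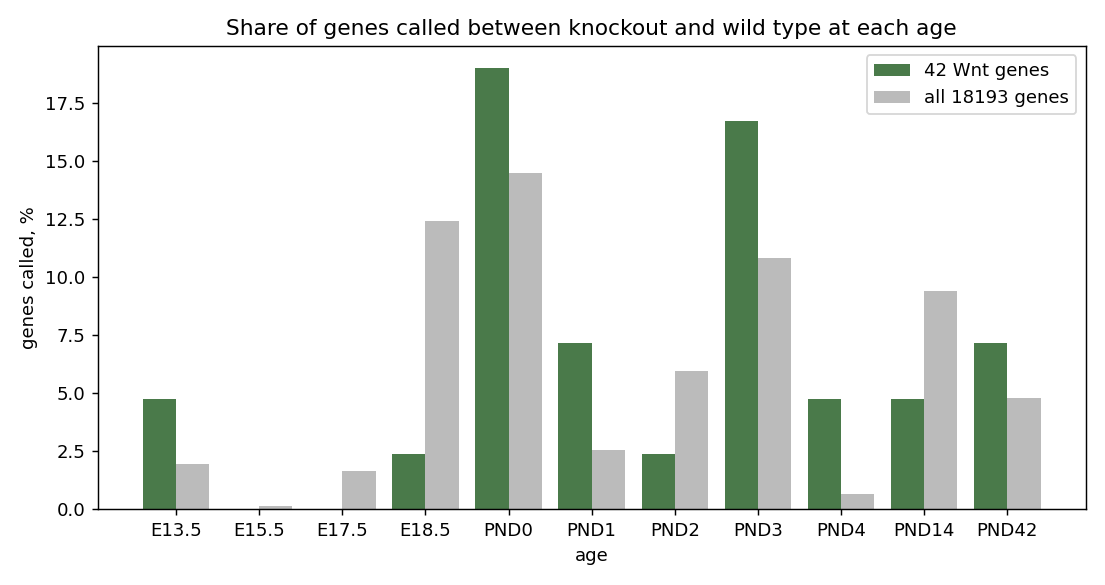
Share of genes called between knockout and wild type at each age, in percent: green bars are the 42 Wnt genes and grey bars all 18193 genes, from the same fit. The green bar is highest at PND0 (19% against 14.5%), and at E15.5 and E17.5 it is at 0.

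The rest of the pathway was followed with a list of 60 measured genes. At PND0, 9 of the 60 were called (15%), against 14.5% of all genes, 6 lower and 3 higher. The R-spondins are secreted proteins that raise the number of Frizzled receptors at the surface by way of the Lgr receptors, and Rspo2 fell more than any other gene of the list. It read 7.80, 7.11 and 7.30 in wild type and 5.04, 5.31 and 5.85 in knockout, a difference of -2.00 ± 0.32 (adjusted p = 6.9e-06). Rspo1 (-0.81 ± 0.21, adjusted p = 0.0057) and the receptor Lgr6 (-1.13 ± 0.22, adjusted p = 0.00015) were lower too. Wls, which carries Wnt proteins to the cell surface, read 11.38, 11.34 and 11.56 against 11.11, 11.07 and 10.97 (-0.38 ± 0.12, adjusted p = 0.023). The planar polarity genes Vangl2 (-0.68) and Prickle1 (-0.63) were lower as well.

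Nkd1, a feedback inhibitor induced by the pathway, went the other way at birth. It read 10.88, 10.28 and 10.68 in wild type and 11.61, 11.73 and 11.81 in knockout, a difference of 1.11 ± 0.21 (adjusted p = 0.00011). Tnks (0.39) and Axin1 (0.34) were the other 2 higher genes. Rspo2 was lower at PND3 as well, at 8.53, 8.43 and 8.70 against 6.97, 6.63 and 6.64 (-1.80 ± 0.32, adjusted p = 7.5e-05). In the adult, where Rspo2 read 4.47 to 5.31 in wild type, 5 of the 60 were called (8.33%), against 4.8% of all genes, 4 higher and 1 lower. Bcl9, a co-activator that binds beta-catenin, was among the 4 higher ones, at 7.23, 7.22 and 7.5 against 8.06, 8.47 and 8.48 (1.02 ± 0.18, adjusted p = 9.8e-05).

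Averaged over the ages, 9 of the 60 pathway genes were called (15%), against 11.3% of all genes, 8 higher and 1 lower. When array medians were subtracted, 10 were higher and 1 lower, where 82.5% of all called genes were higher in place of 59.7%, and over the 54 libraries 8 were higher and 4 lower. The higher ones were Bcl9 (0.27 ± 0.05, adjusted p = 0.00052), Porcn, the enzyme that acylates Wnt proteins (0.22 ± 0.06, adjusted p = 0.011), Tcf7l1, Nkd2, Ptk7, Znrf3, Ccnd1 and Axin1, and the lower one was Amer1 (-0.18 ± 0.05, adjusted p = 0.0075). At other ages limma called 6 higher and 3 lower at E18.5 (15%, against 12.4% of all genes), 6 and 2 at PND14 (13.3%, against 9.38%), 5 and 2 at PND3 (11.7%, against 10.8%) and 2 and 1 at PND2 (5%, against 5.97%). It called 1 lower at E17.5 (Lgr6, fall of 0.90; 1.67%, against 1.64%) and 1 higher at PND1 (Ptk7, 0.51; 1.67%, against 2.56%). It called none at E13.5, E15.5 and PND4 (against 1.96%, 0.148% and 0.643% of all genes), where 13, 2 and 9 had an unadjusted p under 0.05. Without wild type PND14 replicate 2, the library richest in thymus genes, limma called none of the 60 at PND14, against 1.05% of all genes. Subtraction of array medians left 1 higher and 1 lower at PND3, 1 higher at PND2 and none called at PND1. At PND0 the 54 libraries gave 5 higher and 9 lower (against 19.9% of all genes called), and in the adult 7 and 3 (against 7.35%).

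In wild type 54 of the 60 differed between ages (90%, against 74.2% of all genes). This test spans both sets of arrays, so age and array set cannot be told apart in it. Tcf7l1, for 1, averaged 10.22 at PND0, 7.63 at PND1, 7.43 at PND4 and 9.53 at PND14. From E15.5 to PND0, 9 were higher and 12 lower (35%, against 36.8%), and from E13.5 to E15.5, 2 and 6 (13.3%, against 10.8%). From PND0 to PND14, 2 were higher and 10 lower (20%, against 16.9%), from PND14 to PND42, 8 and 12 (33.3%, against 20%), and from PND1 to PND4, 3 and 3 (10%, against 13.4%). The split from PND0 to PND14 was 5 and 5 with array medians subtracted and 6 and 2 over the 54 libraries. From PND14 to PND42 the 54 libraries gave 2 higher and 10 lower. The knockout difference depended on age for 29 of the 60 (48.3%), against 35.2% of all genes, by a test that also spans both sets.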

How the data were processed

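RNA of 66 lung samples was hybridised to 1-colour Affymetrix arrays. The authors deposited a table of signal intensities on a linear scale, summarised per probe set with GCOS (version not given), per the submitters' processing notes; no source used here gives further steps. Arrays of PND1 to PND4 were scaled to another level than the rest. All 45101 rows were quantile normalized, the 64 controls dropped, and log2(signal + 16) taken from the deposited intensities. Array background limits precision, and depth does not apply.

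The 22 groups were each given a mean in 1 limma 3.58.1 fit in R 4.3.3 (lmFit, contrasts.fit, eBayes with trend; 44 residual degrees of freedom), two-sided, adjusted by Benjamini-Hochberg over 45037 probe sets. Symbols came from the platform annotation: 34945 probe sets had 1 symbol, 932 several and 9160 none, and only the first were used. Members and lists were chosen with earlier results of these data known. Named genes were those called in each comparison, up to 6 with the largest changes in each direction, and any others are named beside their values. Alternatives were other scalings (a trimmed mean of 500, array medians subtracted), a pseudocount of 64, a filter on dim probe sets, array weights, the mean of a gene's probe sets, a replicate block, 2 groups alone, single libraries or ages left out and, chosen after seeing the data, PND14 left out of the average and only 54 libraries. Replicates were called biological by the submitters.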

Additional observations from a re-analysis of the deposited data

Results flagged for a closer look

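For 15 of the 42 genes (35.7%, against 35.2% of all genes) the knockout difference was not the same at the 11 ages, a share close to the background. The test was limma's F test of the interaction (adjusted p under 0.05). It compares ages from both sets of arrays, so age and array set cannot be told apart in it. Each gene is given with the ages at which the difference was lowest and highest. Fzd8 gave an adjusted p of 2.7e-07, with differences from -1.03 at E13.5 to 1.16 at PND4. Wif1 gave 2.5e-05, from -2.51 at PND42 to 0.13 at PND1. Fzd7 gave 3.1e-05, from -0.66 at PND0 to 0.56 at PND1. Wnt2 gave 5.3e-05, from -1.35 at PND0 to 1.10 at PND4. Fzd6 gave 6.7e-05, from -0.40 at E18.5 to 0.68 at PND14. Fzd2 gave 1e-04, from -0.72 at PND0 to 0.23 at PND1. Fzd3 gave 0.0017, from -0.66 at PND3 to 0.43 at PND14. Lef1 gave 0.0038, from -1.49 at PND14 to 2.60 at PND2, the ages with thymus-rich libraries, and 0.39 over the 54 libraries. Fzd5 gave 0.004, from -0.32 at E17.5 to 0.78 at PND0. Wnt5a gave 0.0098, from -1.08 at PND0 to 0.31 at PND1. Wnt4 gave 0.011, from -0.52 at E15.5 to 0.91 at PND3, and 0.061 over the 54 libraries. Fzd1 gave 0.013, from -0.44 at PND0 to 0.59 at PND1. Wnt9a gave 0.013, from -0.82 at E13.5 to 0.54 at PND3. Fzd10 gave 0.02, from -0.70 at E18.5 to 1.08 at PND3. Sfrp2 gave 0.03, from -0.94 at PND0 to 0.87 at E18.5.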

How the results depend on the processing

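Of 77 called differences of single members, 25 kept their call under every alternative run and 40 without any 1 library. Of 1342 values under alternatives, 1122 kept direction and side of the threshold, 215 lost the call and 5 turned. With the mean of a gene's probe sets, Fzd6 turned at E18.5 (0.0055) and PND42 (-0.070), Fzd7 at PND0 (0.17) and Wnt7b from PND14 to PND42 in wild type (0.019). Over the 54 libraries Lef1 turned at PND14 (0.040). The causes were not tested unless named.

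The share of all genes called moved between settings too, so the counts below do not describe the Wnt genes alone. Over the 54 libraries that share was 19.9% at PND0, 7.35% at PND42, 3.2% at PND1 and 3.48% at E17.5. In the analysis as reported it was 14.5%, 4.8%, 2.56% and 1.64%. With array medians subtracted it was 10.3% at E18.5 and 0.748% at PND1. Shares for the other settings are not given here. Counts of members called moved by over 1.5 times as follows. Averaged over ages (3 in the analysis as reported), limma called 5 when scaled to a trimmed mean of 500, 7 with the filter (which tests fewer probe sets and keeps 32 members), 9 with array weights, 6 over the 54 libraries, 6 without E17.5 and E18.5, 6 without E13.5 and 7 without PND14. Scaling to a trimmed mean of 500 gave 4 at E13.5 and 0 at E18.5, and subtracting array medians gave 1 at E13.5, 0 at E18.5, 0 at PND1 and 1 at PND4. The filter gave 4 at E13.5, and a pseudocount of 64 gave 2 at E18.5. Array weights gave 1 at E15.5, 2 at E17.5, 7 at E18.5, 14 at PND0, 1 at PND14 and 5 at PND42. The mean of probe sets gave 1 at E13.5, 0 at E18.5, 4 at PND3 and 6 from PND14 to PND42. Fits of 2 groups alone, with fewer degrees of freedom, gave 0 at E13.5, 3 at E17.5, 0 at E18.5, 1 at PND1, 0 at PND2, 0 at PND14 and 5 at PND42, and for the wild-type steps 4 (E13.5 to E15.5), 20 (E15.5 to PND0), 0 (PND0 to PND14) and 0 (PND14 to PND42). Against wild type E17.5 the libraries labelled E18.5 gave 0. The 54 libraries gave 1 at E17.5, 13 at PND0, 5 at PND1, 3 at PND2, 3 at PND3, 0 at PND14, 5 at PND42, 4 from PND0 to PND14 and 6 from PND14 to PND42.

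Leaving out each library in turn gave 3 to 7 for the average, 14 to 18 for dependence on age, 30 to 34 for age in wild type, 1 to 4 at E13.5, 0 to 0 at E15.5 and E17.5, 0 to 4 at E18.5, 6 to 9 at PND0, 0 to 2 at PND1, 1 to 2 at PND2, 4 to 7 at PND3, 1 to 2 at PND4, 0 to 9 at PND14 and 1 to 3 at PND42. For the wild-type steps it gave 4 to 9 (E13.5 to E15.5), 11 to 13 (E15.5 to PND0), 6 to 8 (PND0 to PND14), 6 to 11 (PND14 to PND42) and 4 to 6 (PND1 to PND4). The share of all genes called at PND14 ran from 1.05% without wild type replicate 2 to 19.7% without wild type replicate 1.

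Samples of the 2 genotypes share only a replicate number: of 33 same-numbered pairs, 1 had deviations from the group means that correlated above 0.1 (range -0.18 to 0.21). With the replicate block, 0 members were called at E18.5 and 1 at PND14, and no other count moved by over 1.5 times. With array medians subtracted, the share of higher genes among all called was 48.2% in place of 37% at E13.5, 92.9% in place of 80.9% at E17.5, 71.8% in place of 57.3% at E18.5, 82.9% in place of 52.2% at PND2 and 69.6% in place of 55.4% at PND14.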
